A study of Mus musculus with 12 samples.

Results

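Synaptic vesicles store transmitter at nerve terminals and release it when calcium enters, and dense-core vesicles carry neuropeptides and granins. A set of 33 genes of both vesicle systems was followed in cultured mouse dorsal root ganglion (DRG) neurons, out of 17915 gene names in the deposited tables. The genes were listed by name, with earlier results in view, and fall into 4 roles: vesicle membrane proteins and calcium sensors, release machinery, endocytosis, and granins with other dense-core genes. DRG neurons are the sensory neurons beside the spinal cord. Ganglia of 1 adult C57B6 mouse gave each culture, which grew for 3 days on an insert with 1 µm pores, so that neurites passed below the membrane while the cell bodies (soma) stayed above. The cultures were labelled GAR+/+ (WT) or GAR+/- (het), where GAR is a stretch of nucleolin, an RNA-binding protein, that is rich in glycine and arginine. The heterozygous allele was thus present in the whole animal, and 3 libraries were made of each compartment in each genotype, 12 in all. No agent was given to any group in the labels. The series asked how RNA is distributed between both compartments and whether this differs with the GAR allele.

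In sensory neurons, vesicle proteins are made largely in the soma and carried along the axon. Fusion is driven by the SNARE proteins SNAP25, syntaxin 1A and VAMP, synaptotagmins sense calcium, complexins clamp and aid fusion, and NSF with its SNAP adaptors takes used SNARE complexes apart. Clathrin adaptors, dynamin, amphiphysin, endophilin and synaptojanin then recover the membrane. Granins are acidic secretory proteins that fill the dense-core vesicle.

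The deposited tables count reads per transcript, and counts were summed per gene over transcripts present in both tables. This gave values for 32 of the 33 genes, all of which passed the filter on low counts. The exception was Syt11, a synaptotagmin that does not bind calcium. It was counted on a different transcript in each table, with 5 to 14 counts per soma library and 0 to 7 per neurite library, so its compartments were not compared. The annotation GENCODE M21 (GRCm38) lists 186 transcripts of the 33 genes, and 67 of them were counted in both tables. For 16 of the 32 genes at least 50% of the most counted transcript was exonic sequence that no other transcript covers, and for 12 genes it was under 10%. How reads in shared exons were assigned is not given in the sources used here. Levels between genes therefore carry that limit, whereas 1 gene's libraries were compared over the same transcripts. No exon of the genes lay under another gene's exon on the same strand, and 9 genes shared some exonic bases with a gene on the opposite strand, among them Syp (16.8%) and Syt4 (14.5%). The libraries were stranded, and the strand setting of the counting is not given in the sources used here.

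Totals ranged from 14965973 to 32434916 counts per library, and the 32 genes took 0.844% to 0.945% of the counts in WT soma and 1.02% to 1.06% in het soma. In neurites they took 0.622% to 0.751% in WT and 0.767% to 0.980% in het. The 15 pan-neuronal markers, among them Tubb3, Isl1 and Avil, were detected in all 12 libraries, and so were 14 markers of Schwann cells and satellite glia. The cultures were thus mixed, and fewer neurons and less vesicle RNA per neuron cannot be told apart. P-values below measure the spread between libraries of separate cultures within a group.

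Per kilobase of counted exon, the most abundant gene was Syt4, a synaptotagmin of dense-core and neurotrophin-carrying vesicles. Its level in WT soma was 628 ± 92.3 CPM (counts scaled to library size) per kilobase (SD, n = 3). The granins Scg3, at 345 ± 29.7, and Scg2, at 307 ± 22.0, came next, and these intervals of 1 SD touched. They were followed on this scale by Cplx1 (complexin 1), at 227 ± 17.2, and Slc17a6, the vesicular glutamate transporter VGLUT2, at 202 ± 25.1, and these also lay within 1 SD of each other. Snap25 had 138 ± 15.7 CPM per kilobase when divided by the union of its counted exons. Summing each transcript's counts over its own length instead gave it 445 CPM per kilobase, which on that scale is above Scg3, Scg2 and Cplx1 and below Syt4. Amph (amphiphysin), the most abundant endocytosis gene, had 48.1 ± 3.68. The lowest values on this scale were those of Syt1, the main calcium sensor of fast release, at 0.244 ± 0.0832, and Synj1, the lipid phosphatase synaptojanin 1, at 0.282 ± 0.0878. Both were counted only on transcripts with few counts, 12 being the lowest count of any gene in a library, so their levels are those of the counted transcripts and not of the whole gene.

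In WT cultures, Sv2b, Syt2 and Chga mRNAs were lower in neurites than in soma relative to all RNA, most other vesicle genes had negative values that did not pass the test, and none was called higher. The log2 fold change of neurites over soma was negative in 31 of 32 genes, against 49.3% of the 15990 genes tested, and its median was -0.34 against 0.01 for all genes. In edgeR's quasi-likelihood test with Benjamini-Hochberg adjustment over all genes and a threshold of 0.05, 3 of the 32 genes were lower: Sv2b, Syt2 and Chga. Of all genes tested, 0.688% were lower. At an unadjusted p under 0.05, 20 of the 32 were lower, against 8.26% of all genes. All 3 neurite libraries lay below all 3 soma libraries in 12 of the 32 (37.5%), against 9.96% of all genes.

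**Figure D1:**
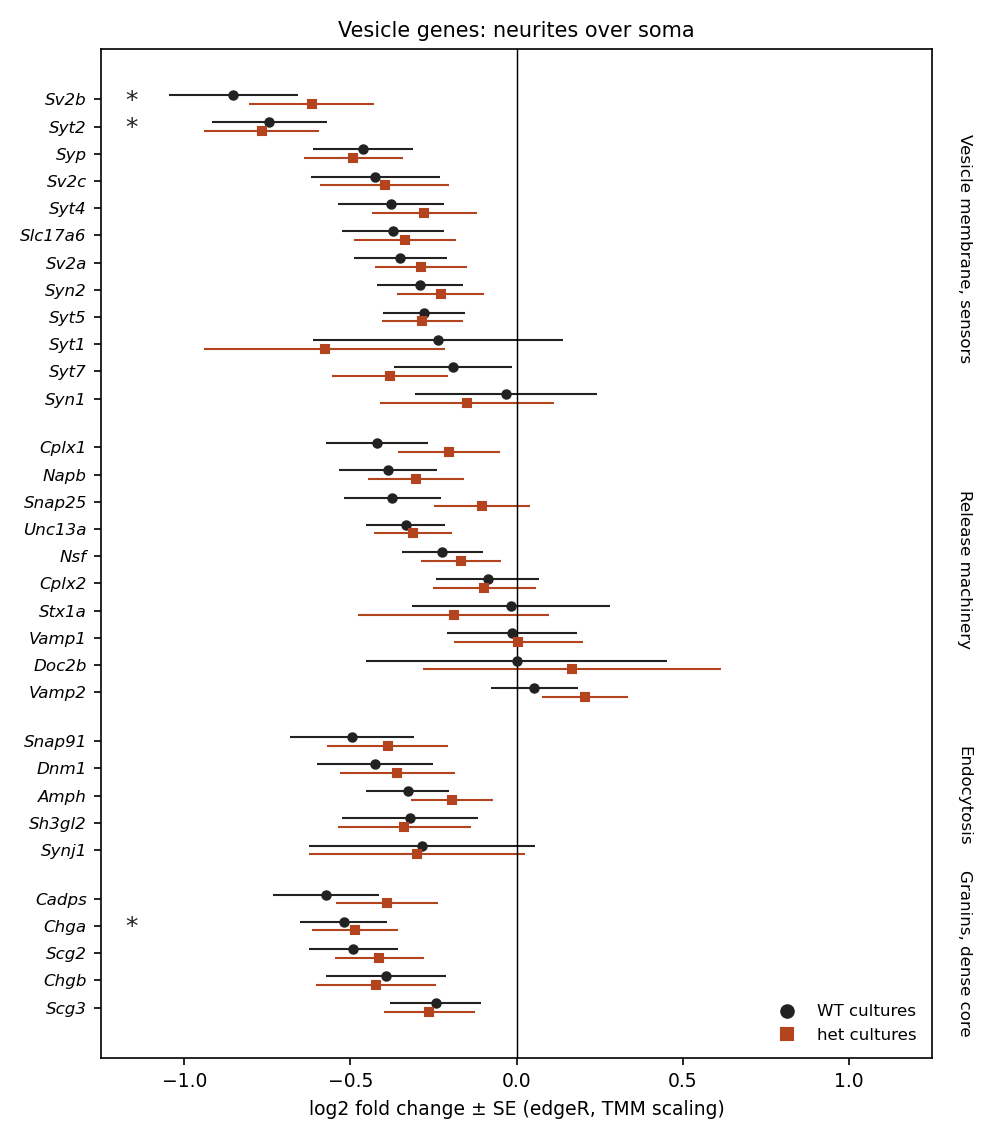
Log2 fold change of neurites over soma for 32 vesicle genes (x axis, ± SE from edgeR), by role and ordered by the WT value. Circles are WT cultures and squares het cultures, 3 libraries per group; an asterisk marks the 3 genes past the adjusted threshold in WT. Nearly all points lie left of 0, from -0.85 for Sv2b in WT to 0.21 for Vamp2 in het.

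Sv2b encodes a synaptic vesicle glycoprotein and lies on chr7:75114894-75309262, minus strand (GRCm38). It had 11.8, 10.8 and 9.84 CPM in the WT soma libraries and 4.97, 7.40 and 5.64 in the WT neurite libraries. The groups did not overlap, and every neurite library was below every soma library. The log2 fold change was -0.85 ± 0.19 (SE), that is 1.81-fold lower, with an adjusted p of 0.0288 in edgeR. Syt2, the fast calcium sensor of large sensory neurons, lies on chr1:134646677-134762593, plus strand. It had 311, 295 and 273 CPM in WT soma and 172, 213 and 139 in WT neurites, again without overlap. Its log2 fold change was -0.74 ± 0.17, with an adjusted p of 0.0359 in edgeR. Chga (chromogranin A) lies on chr12:102554969-102565028, plus strand, and had 163, 154 and 153 CPM in WT soma and 106, 119 and 102 in WT neurites. Its fold change on the log2 scale was -0.52 ± 0.13, with an adjusted p of 0.0443 in edgeR. The soma values of Chga varied little, and the highest neurite library stayed well below them.

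These 3 calls were narrow. None of the 3 passed when the 6 WT libraries were fitted alone, a fit that called 0.013% of all genes lower, or without any 1 WT soma library, or without WT neurite library 1 or 3. Chga also missed the threshold without any 1 het soma library. Over the fits that left out a library the adjusted p reached 0.114 for Sv2b, 0.129 for Syt2 and 0.136 for Chga in edgeR, while the log2 fold changes stayed between -1.02 and -0.74, -0.91 and -0.61, and -0.59 and -0.48. Without WT neurite library 2, in which the 32 genes took 0.751% of the counts against 0.625% and 0.622% in the other WT neurite libraries, 10 genes were called lower, against 2.75% of all genes in that fit. Same-numbered WT soma and neurite libraries deviated together, and with the replicate number as a block 15 of the 32 genes were lower, against 3.46% of all genes. This block was shared by both genotypes, so it also tied WT to het libraries by number. A block on culture tied soma to neurites within a genotype only. It called the same genes lower except Syt4, Slc17a6 and Unc13a. DESeq2 called 6 lower, against 3.12% of the genes it gave an adjusted p.

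Among vesicle membrane proteins and sensors, all 12 log2 fold changes in WT were negative, with a median of -0.36. In 6 genes (50%) the groups did not overlap, against 9.96% of all genes. Beside Sv2b and Syt2 these were Syp (synaptophysin), Slc17a6, Sv2a and Syt5. Syp had 353, 369 and 304 CPM in WT soma and 248, 284 and 214 in WT neurites, a log2 fold change of -0.46 ± 0.15 with an adjusted p of 0.109 in edgeR. With the replicate block, Syp was lower in edgeR, with an adjusted p of 0.0100. Syt4 had 2189, 2854 and 2287 CPM in WT soma and 1706, 2195 and 1741 in WT neurites. Library 2 of neurites exceeded library 1 of soma, so the groups of Syt4 overlapped, and the log2 fold change was -0.38 ± 0.16. With the block, Syt4, Slc17a6 and Sv2c were also lower. Syn1 (synapsin 1), at -0.03 ± 0.27, and Syt7, at -0.19 ± 0.18, were nearest to 0 in this role.

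The release machinery had the weakest neurite deficit of the 4 roles, with a median of -0.16 over 10 genes. Of these, edgeR called 0, and 4 were lower at an unadjusted p under 0.05, against 8.26% of all genes. Unc13a, the priming factor Munc13-1, was the only release gene whose groups did not overlap, at -0.33 ± 0.12. That share of 10% was near the 9.96% of all genes. Cplx1 had 496, 535 and 460 CPM in WT soma and 343, 477 and 295 in WT neurites, and Snap25 had 1045, 943 and 831 in soma and 692, 857 and 627 in neurites. Neurite library 2 reached into the soma range for both. The log2 fold changes were -0.42 ± 0.15 for Cplx1 and -0.37 ± 0.14 for Snap25. With the block, Cplx1, Napb (the SNARE-recycling adaptor beta-SNAP) and Unc13a were lower, and Snap25 was not. Vamp2, the vesicle SNARE of fast release on chr11:69088490-69092384, plus strand, was the 1 gene of the 32 with a positive value. It had 111, 142 and 137 CPM in WT soma and 115, 166 and 125 in WT neurites, which overlapped throughout, and a log2 fold change of 0.05 ± 0.13. Vamp1, Stx1a and Cplx2 lay between -0.09 and -0.01, and Doc2b was closer to 0 still. Vamp2 is described at length because of its values, as is Scg2 in the granin group.

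The 5 endocytosis genes ranged from -0.50 ± 0.19 for Snap91, the clathrin assembly protein AP180, to -0.28 ± 0.34 for Synj1, with a median of -0.33. EdgeR called 0 of the 5, and 3 were lower at an unadjusted p under 0.05, against 8.26% of all genes. Amph had 167, 171 and 148 CPM in WT soma and 120, 154 and 113 in WT neurites, a log2 fold change of -0.33 ± 0.12. Only neurite library 2 of Amph reached the soma range. With the block, Snap91, Dnm1 (dynamin 1) and Amph were lower, at -0.49, -0.44 and -0.34.

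**Figure D2:**
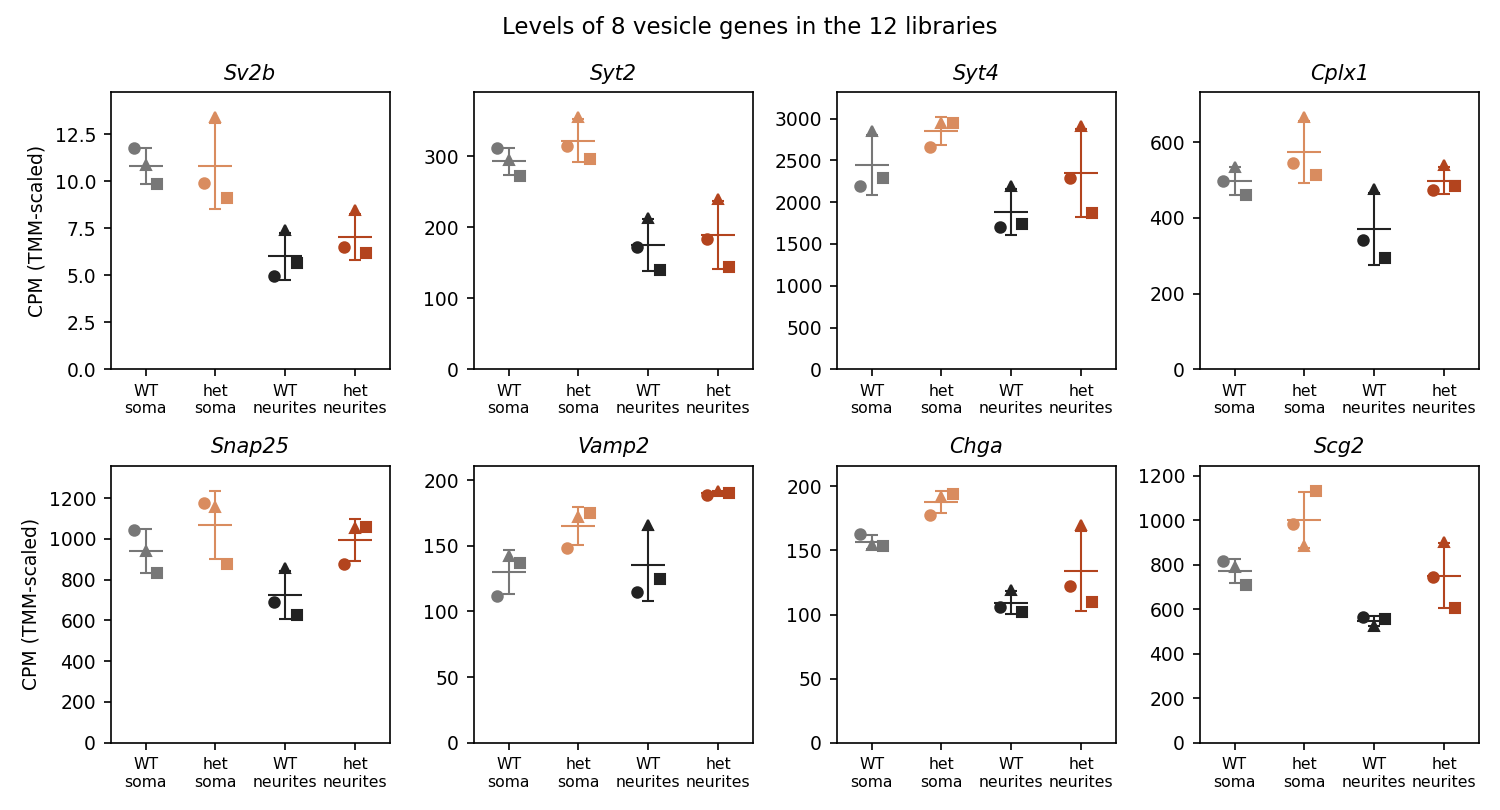
CPM (y axis, TMM-scaled, from 0) of 8 vesicle genes in the 12 libraries, grouped by genotype and compartment on the x axis. Points are libraries 1 (circle), 2 (triangle) and 3 (square), the bar is the mean and the whiskers ± SD; Sv2b, Syt2 and Chga are lower in neurites of both genotypes, and Vamp2 reaches 189 to 192 CPM in all 3 het neurite libraries.

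The granin group had the lowest WT median of the 4 roles, -0.49, and the libraries of both compartments did not overlap in any of its 5 genes. Of all genes, 9.96% were lower without overlap, and of the pan-neuronal markers 33.3%. Scg2 (secretogranin 2), on chr1:79434669-79440120, minus strand, had 816, 790 and 710 CPM in WT soma and 567, 524 and 556 in WT neurites. Its log2 fold change was -0.49 ± 0.13, with an adjusted p of 0.0601 in edgeR and 0.0230 with the block. Cadps, the dense-core vesicle priming factor CAPS1, had 6.19, 6.89 and 7.92 CPM in soma and 4.34, 4.91 and 4.82 in neurites, at -0.57 ± 0.16 with an adjusted p of 0.0639 in edgeR and 0.0284 with the block. Scg3 had 905, 779 and 786 CPM in soma and 761, 706 and 620 in neurites, and its highest neurite library came close to its lowest soma library. Its log2 fold change was -0.24 ± 0.14. Chgb (chromogranin B) had 109, 96.8 and 88.2 CPM in soma and 78.3, 85.9 and 59.8 in neurites, at -0.39 ± 0.18 with an adjusted p of 0.251 in edgeR. DESeq2 called Chga, Scg2 and Cadps lower. A difference between the roles was not tested.

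Granin genes are known for cyclic AMP response elements (CREs) close to their start sites. RefSeq promoter windows (GRCm38.p6, 250 bases before to 50 after the start) were matched for 27 of the 33 genes, in 35 windows, and searched on both strands for the letters TGACGTNA. The motif stood in 1 window each of 5 genes, Scg2, Chgb, Chga, Syn1 and Sh3gl2, and in 2.93% of all 32851 RefSeq windows. A TATA motif, TATAAA on either strand, stood in windows of Chga and Sv2b and in 13.6% of all windows. The 3 granin windows with the CRE letters are shown 5′ to 3′ on the gene's strand to set the granin genes side by side, with the motif in capitals. They lie at chr1:79439977-79440276 (minus strand), chr2:132781392-132781691 (plus strand) and chr12:102554691-102554990 (plus strand).
Scg2: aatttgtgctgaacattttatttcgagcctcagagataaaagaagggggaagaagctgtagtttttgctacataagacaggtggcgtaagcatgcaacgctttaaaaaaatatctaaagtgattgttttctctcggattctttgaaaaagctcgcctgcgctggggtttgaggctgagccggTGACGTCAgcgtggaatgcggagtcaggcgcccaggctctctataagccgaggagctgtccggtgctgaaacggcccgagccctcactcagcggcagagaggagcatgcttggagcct
Chgb: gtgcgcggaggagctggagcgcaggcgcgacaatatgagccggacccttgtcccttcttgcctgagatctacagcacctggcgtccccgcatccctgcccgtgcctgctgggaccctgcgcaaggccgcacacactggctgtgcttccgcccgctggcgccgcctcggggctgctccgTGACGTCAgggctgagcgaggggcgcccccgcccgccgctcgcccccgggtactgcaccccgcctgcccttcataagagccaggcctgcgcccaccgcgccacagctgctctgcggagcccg
Chga: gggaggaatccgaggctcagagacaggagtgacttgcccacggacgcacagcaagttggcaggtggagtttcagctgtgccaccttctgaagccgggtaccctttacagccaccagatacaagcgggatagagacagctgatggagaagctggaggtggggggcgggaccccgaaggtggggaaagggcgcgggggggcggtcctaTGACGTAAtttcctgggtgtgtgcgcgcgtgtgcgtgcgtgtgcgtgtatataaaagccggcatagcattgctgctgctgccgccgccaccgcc
The match starts 68 bases before the RefSeq start of Scg2, 72 before that of Chgb and 44 before that of Chga. These RefSeq starts differ from the GENCODE starts of the genes. For Scg2 and Chgb the match lies inside the GENCODE span. Scg3 had no match in its window, which says only that these letters are not there. The motif was not compared with the neurite values.

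Markers of neurons and of other cells also differed between the compartments, in the same comparison as the vesicle genes. The 15 pan-neuronal markers summed to 14274 to 16652 CPM in WT soma and 10641 to 14362 in WT neurites, and their median log2 fold change was -0.34, the same as for the vesicle genes. Rbfox3 and Uchl1 among them were lower in edgeR. The 14 glia markers summed to 1877 to 2290 CPM in WT soma and 2462 to 2603 in WT neurites, with none at 0 in any library and a median of 0.56, and Prx, Sox2 and Sox10 were higher. S100b alone had a negative value, -0.40 ± 0.15, with an unadjusted p of 0.0163 in edgeR and groups that did not overlap. Glul was at 0.06 ± 0.14. These genes, S100b and Glul, had the highest counts of the glia markers in every WT soma library. The 4 proliferation markers summed to 431 to 627 CPM in WT soma and 545 to 966 in WT neurites. Macrophage markers (4 tested) had a median of -0.33 and fibroblast markers (5 tested) of 0.06. Scaling the libraries by the summed pan-neuronal counts in place of TMM moved the median of all genes from 0.01 to 0.38 and that of the vesicle genes from -0.34 to 0.02. On that scale edgeR called 0 of the 32, against 0.0125% of all genes lower. Sv2b had -0.50 with an adjusted p of 0.0797, Syt2 -0.40 with 0.0740, Chga -0.16 with 0.467, and Vamp2 0.41 with 0.0662. Relative to pan-neuronal RNA, the medians of the roles in WT were 0.00 for vesicle genes, 0.20 for release, 0.03 for endocytosis and -0.10 for granins. Scaling by neuronal counts cannot tell fewer neurons from less RNA per neuron. The part of the cell mix in the neurite deficit was not tested.

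**Figure D3:**
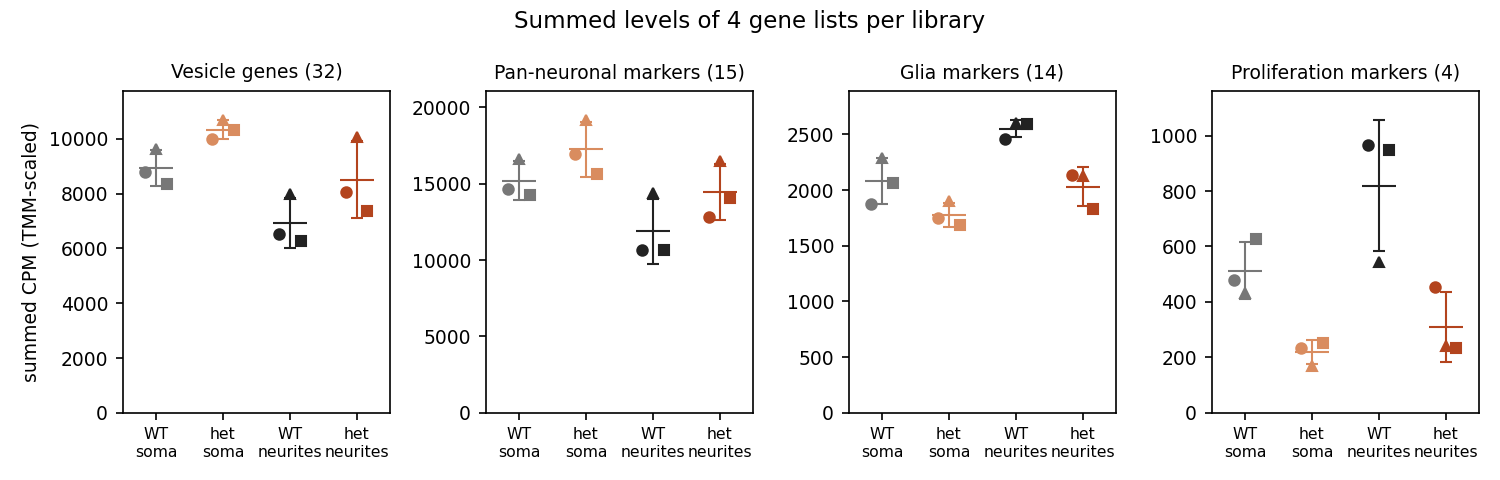
Summed CPM (y axis, TMM-scaled, from 0) of the 32 vesicle genes and of pan-neuronal, glia and proliferation markers in each library, grouped by genotype and compartment. Points are libraries 1 (circle), 2 (triangle) and 3 (square), with mean and SD; vesicle and pan-neuronal sums are lower in neurites than in soma and higher in het than in WT by their means, and the glia and proliferation sums go the other way.

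In het cultures no vesicle gene passed the edgeR test between compartments when no block was fitted, and most values were again negative. The median log2 fold change was -0.30 against -0.01 for all genes, and 29 of 32 values were negative. EdgeR called 0 of the 32 lower, against 0.0938% of all genes, and 12 were lower at an unadjusted p under 0.05, against 6.75%. DESeq2 called Syt2 and Chga lower, against 1.4% of the genes it gave an adjusted p, and limma voom called 0. With either block edgeR called Syt2, Syp, Chga, Sv2b and Sv2c lower, with no share of all genes given. Same-numbered het libraries correlated at 0.0504 to 0.256 across compartments, so the numbers were not taken to pair them. The calls in WT with a block and in het without one are thus not like for like. Het neurite libraries lay below all het soma libraries in 10 genes, against 10.6% of all genes. Syt2 had 314, 355 and 296 CPM in het soma and 183, 239 and 144 in het neurites, at -0.77 ± 0.17 with an adjusted p of 0.0633 in edgeR. Chga had 178, 192 and 194 CPM in soma and 122, 170 and 110 in neurites, at -0.49 ± 0.13 with an adjusted p of 0.108 in edgeR. Sv2b had 9.90, 13.4 and 9.12 CPM in soma and 6.48, 8.44 and 6.19 in neurites, at -0.62 ± 0.19 with an adjusted p of 0.156 in edgeR. Neurite library 2 was the highest of its group in all 3 genes, and without it edgeR called Chga, Syt2 and Syp lower, against 0.631% of all genes in that fit. Sv2b did not pass in any fit that left out a library.

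The 3 positive values in het cultures were those of Vamp2, Doc2b and Vamp1. Vamp2 had 148, 172 and 175 CPM in het soma and 189, 192 and 190 in het neurites, so that the neurite libraries lay above all soma libraries, as in 11.7% of all genes. The log2 fold change was 0.21 ± 0.13, with an adjusted p of 0.514 in edgeR. Doc2b had 0.17 ± 0.45, Vamp1 0.00 ± 0.19 and Snap25 -0.10 ± 0.14, so Vamp2 was not set apart from these by its error. Pan-neuronal markers had a median of -0.24 and glia markers of 0.45 in this comparison, and on the pan-neuronal scale the vesicle genes had a median of -0.05 and all genes of 0.25.

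Between genotypes, vesicle mRNAs had higher values in het than in WT in both compartments, and edgeR called none of them. In soma the median log2 fold change of het over WT was 0.21 against 0.01 for all genes, and 30 of 32 values were positive. EdgeR called 0 of the 32 higher and 0% of all genes, DESeq2 and limma voom called 0 of the 32, and 6 were higher at an unadjusted p under 0.05, against 2.11% of all genes. Same-numbered soma libraries of both genotypes also deviated together, and with the replicate number as a block 0 of the 32 and 0.163% of all genes were higher. Het libraries lay above all WT libraries in 8 genes, against 8.86% of all genes. These were Sv2a, Syn2, Syt5, Vamp2, Unc13a, Scg2, Chga and Chgb. Scg2 had 983, 886 and 1134 CPM in het soma, against at most 816 in WT soma, a log2 fold change of 0.37 ± 0.13 with an adjusted p of 0.339 in edgeR. Syn1 had the largest value, 0.52 ± 0.26, from 3.58, 5.81 and 5.25 CPM in WT soma and 6.43, 8.78 and 5.78 in het soma. The low first WT library and overlapping groups leave Syn1 at an adjusted p of 0.593 in edgeR. Its value was 0.34 without WT soma library 1 and 0.33 without het soma library 2.

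In neurites the median of het over WT was 0.25 against -0.01 for all genes, with 30 of 32 values positive. EdgeR called 0 of the 32 higher, against 0.494% of all genes, and 10 were higher at an unadjusted p under 0.05, against 7.72%. DESeq2 called Vamp2, Scg2 and Snap25 higher, against 2.06% of the genes it gave an adjusted p, and limma voom called Vamp2, against 0.444%. Het libraries lay above all WT libraries in Sv2a, Snap25, Vamp2, Scg2 and Cadps, that is 5 genes, against 7.53% of all genes. Without WT neurite library 2, edgeR called 5 genes higher, against 3.52% of all genes in that fit. Vamp2 had the smallest p, with 115, 166 and 125 CPM in WT neurites and 189, 192 and 190 in het neurites. The 3 het libraries were almost equal and lay above all WT libraries. The log2 fold change was 0.50 ± 0.13 with an adjusted p of 0.0504 in edgeR, and between 0.00364 and 0.313 over the alternatives. Scg2 had 567, 524 and 556 CPM in WT neurites and 745, 902 and 608 in het neurites, at 0.45 ± 0.13 with an adjusted p of 0.0749 in edgeR. Snap25 had 692, 857 and 627 against 875, 1052 and 1059 CPM, at 0.46 ± 0.14 with an adjusted p of 0.0930 in edgeR. The largest value, 0.52 ± 0.47, was that of Doc2b, a calcium sensor of spontaneous and asynchronous release. Doc2b had 2.03, 6.66 and 3.62 CPM in WT neurites and 5.95, 5.06 and 6.56 in het neurites, and its groups overlapped. Leaving out WT neurite library 1 gave 0.21, and leaving out library 2 of that group gave 1.01.

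**Figure D4:**
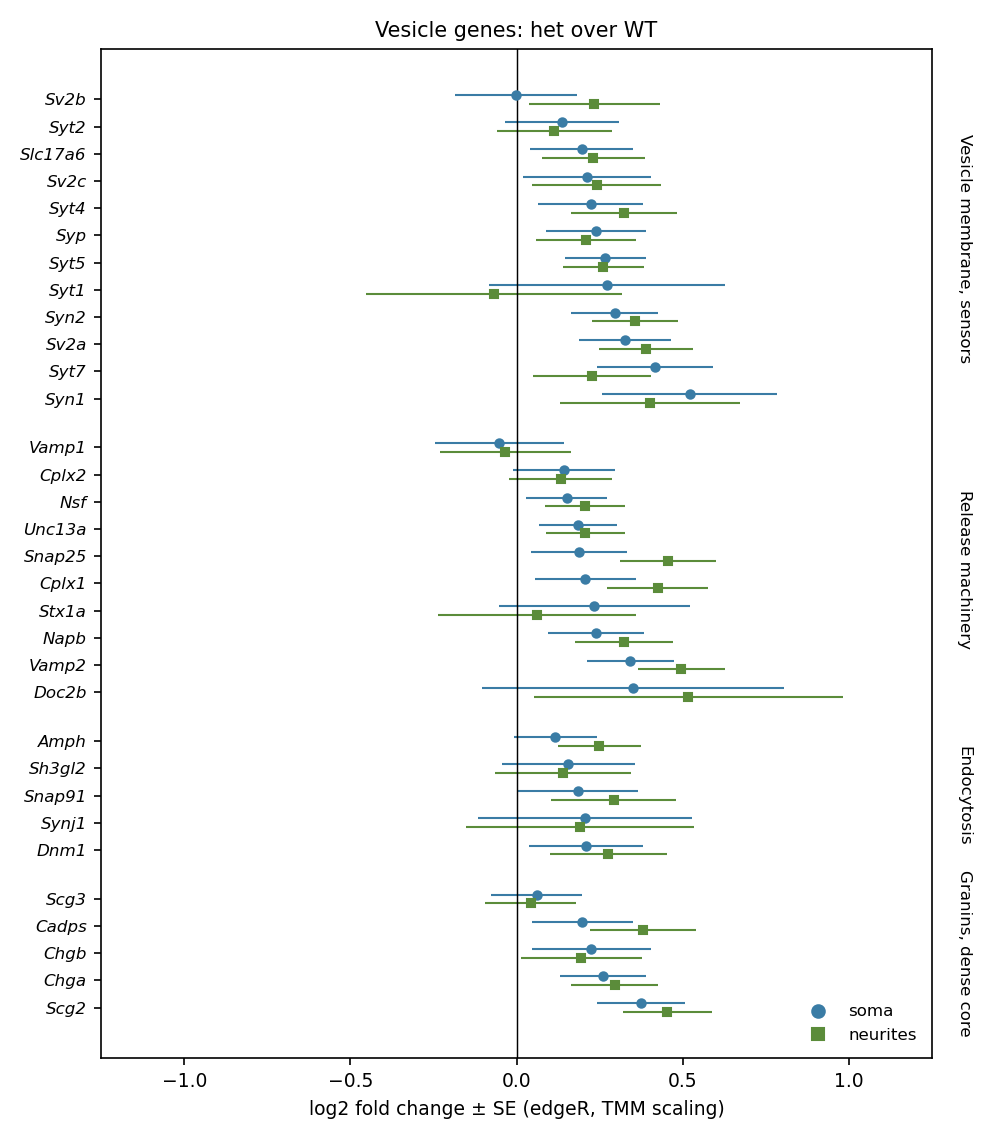
Log2 fold change of het over WT for 32 vesicle genes (x axis, ± SE from edgeR), by role and ordered by the soma value. Circles are soma and squares neurites, 3 libraries per group; 30 of 32 points lie right of 0 in each compartment, and none passed the adjusted threshold.

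Cell type markers moved with genotype as well. In neurites the pan-neuronal median of het over WT was 0.31, with Uchl1 higher in edgeR. The glia median was -0.68, with 5 of 14 lower, and the proliferation median was -1.38, with 3 of 4 lower. Of all 15990 genes tested, 79 were higher and 444 lower. S100b and Glul went against the other glia markers, at 0.26 ± 0.15 and 0.12 ± 0.14. In soma the pan-neuronal, glia and proliferation medians were 0.19, -0.54 and -1.12, with S100b at 0.04, Glul at 0.12 and Mbp at 0.20. Fibroblast markers had medians of -0.55 in neurites and -0.60 in soma, and macrophage markers of 0.30 and 0.31. On the pan-neuronal scale the median of the vesicle genes was 0.03 in soma and -0.04 in neurites, and that of all genes -0.17 and -0.31, and edgeR called 0 of the 32 there in either compartment. This scaling cannot separate the cell mix from RNA per neuron here either, and the part of the cell mix in the genotype values was not tested.

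**Figure D5:**
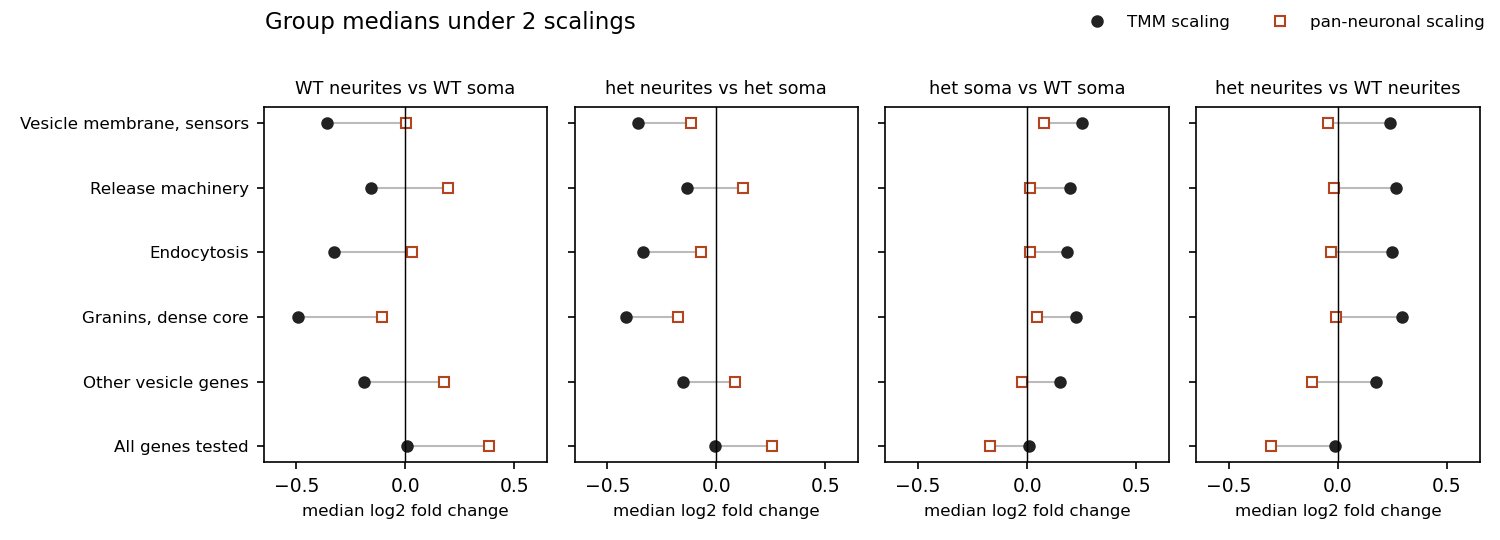
Median log2 fold change (x axis) of the 4 roles, the other vesicle genes and all genes tested in 4 comparisons (panels), with TMM scaling (filled circles) and with scaling by pan-neuronal counts (open squares). The neurite medians of the 4 roles in WT move from between -0.49 and -0.16 to between -0.10 and 0.20.

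The authors' deposited table tests het against WT by transcript in each compartment separately. In the authors' deposited table for soma, 7 of the 71 transcripts of these genes were higher in het at a false discovery rate (FDR) under 0.05, and 0 were lower, against 0.793% of all 35313 transcripts higher. The 7 were transcripts of Scg2, Syn1, Syt5, Syt7 and Vamp2 and a pair from Syn2. For Vamp2 the authors' deposited table gives a log2 fold change of 0.37 with an FDR of 0.00256, and for the more counted Syt7 transcript 0.48 with an FDR of 0.000695. That Syt7 transcript has 0 bases that no other transcript covers, so its value rests on the unstated read assignment. The other counted Syt7 transcript had 0.25 with an FDR of 0.491 there. In the authors' deposited table for neurites, 1 of 69 transcripts, that of Vamp2, was higher at 0.54 with an FDR of 0.0187, against 0.387% of all 32838 transcripts. The same Vamp2 transcript, which took 96.6% of the gene's counts, was thus past the authors' FDR in both compartments. The fit of soma libraries alone by gene called 0 of the 32, and the authors' tests share their libraries with the values above.

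No difference between genotypes in the compartment distribution of vesicle mRNAs was detectable at this replication. The interaction, the het neurite-over-soma change minus that of WT, had a median of 0.03, and edgeR called 0 of the 32 and 0% of all genes. At an unadjusted p under 0.05 edgeR had 0 of the 32, against 1.26% of all genes, and DESeq2 and limma voom also called 0. The largest value was -0.34 ± 0.52 for Syt1, whose libraries held 0.961, 1.05 and 1.74 CPM in WT soma, 1.30, 1.44 and 1.79 in het soma, 0.839, 0.874 and 1.36 in WT neurites and 0.956, 1.46 and 0.577 in het neurites. The groups of Syt1 overlapped, and its value ran from -0.75 without het neurite library 2 to -0.05 without WT neurite library 3. Snap25 had the largest positive value, 0.27 ± 0.20. The SE of the interaction ranged from 0.17 to 0.65 over the 32 genes.

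A list of 62 other vesicle genes (synaptogyrins, further synaptotagmins, active-zone proteins, SNARE partners, clathrin adaptors and prohormone processing) gave 58 with a test. In WT, 2 of the 58 were lower in neurites in edgeR, against 0.688% of all genes, and 0 were higher, with a median of -0.19. Resp18, a dense-core vesicle protein, had 76.5, 76.5 and 71.9 CPM in WT soma and 44.8, 55.2 and 51.1 in WT neurites, at -0.57 ± 0.12 with an adjusted p of 0.0202 in edgeR. Syngr3, the vesicle membrane protein synaptogyrin 3, had 260, 293 and 247 CPM in soma and 163, 203 and 185 in neurites, at -0.54 ± 0.12 with an adjusted p of 0.0288 in edgeR. Neither gene's groups overlapped. In the other comparisons edgeR called 0 of the 58, with medians of -0.15 for het compartments, 0.15 for genotype in soma and 0.17 for genotype in neurites. At an unadjusted p under 0.05 in either direction, edgeR had 12 of the 58 for het compartments (all genes 14.4%). It had 5 for genotype in soma (all genes 9.16%) and 15 for genotype in neurites (all genes 20.9%). By direction, 11 were lower in het neurites than in het soma (all genes 6.75%) and 1 was higher. In het soma 4 were higher than in WT soma (all genes 2.11%) and 1 lower. In het neurites 13 were higher than in WT neurites (all genes 7.72%) and 2 lower.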

How the data were processed

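The deposited tables give read counts per transcript for 6 soma and 6 neurite libraries, made by the authors from stranded, rRNA-depleted total RNA and aligned to mm10 per the submitters' processing notes, which name CASAVA 1.8.2 and edgeR. For the aligner and counter: not given in the sources used here. Each deposited table holds only transcripts with at least 5 counts in at least 3 of its 6 libraries, and 24 further columns of per-sample values were not used. The authors' deposited log2 fold changes, p-values and FDR compare het with WT.

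Counts were summed per gene over transcripts in both tables (16617 genes), since a transcript listed in 1 table has no value in the other. Counts without a gene name (0.574% to 0.694% per library) were left out. The 12 libraries were fitted together in edgeR 4.0.16 (R 4.3.3; TMM, filterByExpr, robust quasi-likelihood, 15990 genes, 5 contrasts, Benjamini-Hochberg threshold 0.05), and the SE is the log2 fold change over the root of F. A count floor of 3 is 0.0925 to 0.2005 CPM, for counting error only. The fit was tested on simulated data, where it called 95% of 2-fold changes and 31% of changes of 1 smaller size. Changes were simulated only for WT neurites over WT soma, in genes above 5 CPM and with 1 fixed spread. No such share is known for the other contrasts or for genes below that level, such as Syt1. A gene that was not called may therefore still have a change, also one of 2-fold. Alternatives were DESeq2 1.42.0, limma voom 3.58.1, other scalings, no filter, length division, subsets, left-out libraries and the replicate block. Deviations of same-numbered libraries correlated at 0.230 to 0.341 in the WT compartments and 0.159 to 0.273 in soma of both genotypes, with the pairing read from the labels' replicate numbers. Per-library values are given for genes past the threshold, the most abundant per role and the largest change per contrast. Members and lists were chosen with earlier results of these data known.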

Additional observations from a re-analysis of the deposited data

Results flagged for a closer look

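A retained-intron transcript of Sv2a (ENSMUST00000133665), counted only in the neurite table and so outside the gene sums, had 7, 5 and 5 counts in the het neurite libraries, 17 in all, and 0, 0 and 3 in the WT neurite libraries. It was singled out because the het signal lay above the WT level in data that the comparisons do not use. The neurite table holds only transcripts with at least 5 counts in at least 3 of its 6 libraries. This transcript met that rule only through the 3 het libraries. The higher het counts were thus set by the filter and are no sign of a genotype difference. The authors' deposited table gives it a log2 fold change of 2.59 with an FDR of 0.386. Groups of 3 libraries were not tested for outlying samples.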

How the results depend on the processing

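The limits are few libraries, unstated assignment of reads in shared exons and mixed cells. Of the 32 genes, edgeR called 3 in the WT compartments. DESeq2 called 6 and the compared libraries alone 0, pan-neuronal scaling gave 0, the replicate block 15 and a block on culture 12, and leaving out 1 library gave 0 to 10. In the het compartments (0 called) DESeq2 called 2, both blocks 5, and leaving out 1 library gave 0 to 3. For genotype in neurites (0 called) DESeq2 called 3, limma voom 1 and the replicate block 6, and leaving out 1 library gave 0 to 5. Same-numbered libraries correlated at 0.0504 to 0.256 in the het compartments and -0.0373 to 0.224 in neurites, so the numbers were not taken to pair these. As a hint from the data only, every het library correlated best with its own number across compartments, and both blocks called Syt2, Syp, Chga, Sv2b and Sv2c there. The block changed no other count. No share of all genes is given for the block on culture, the het blocks, the replicate block in neurites or most fits without 1 library. Those counts therefore cannot be set against all genes. Pan-neuronal scaling moved the medians to 0.0206 (WT compartments), -0.0541 (het compartments), 0.0344 (soma) and -0.0371 (neurites). Leaving out 1 library kept them within -0.48 to -0.29, -0.44 to -0.21, 0.16 to 0.28 and 0.12 to 0.38, and that of the interaction within -0.08 to 0.18. The causes were not tested.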
